A study of Mus musculus with 82 samples.

Results

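A set of imprinted genes and the long RNAs made from them were followed by counting nascent reads on both strands of their curated RefSeq spans in the mouse genome build GRCm38. The genes are Meg3, Rian, Mirg, Kcnq1ot1, Airn, Igf2r, Peg3, Peg10, Grb10 and Snrpn, which are 10 of the 24746 curated RefSeq genes counted. They are given by name, and their spans are those of the annotation. For Kcnq1ot1 and Airn, reads were also followed for 100 kb along the strand of the RNA.

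All libraries came from V6.5 mouse ES cells, grown with serum and LIF, with no treatment or genotype that differed between groups. RNA polymerases in isolated nuclei were allowed to run on with nucleotides that carry a propargyl group. Barcoded DNA was attached to this group by click chemistry, so that a read is meant to mark the 3′ end of an RNA being made. In scGRO–seq each well of a 96-well plate held a single nucleus, and 2526 cells in 35 libraries were kept, each with 1000 or more UMIs on 750 or more features. The cells belong to 10 batches (Exp156, Exp160, Exp208, Exp211, Exp236, Exp246, Exp260, Exp260b, Exp263 and Exp264a), and each batch was taken as a replicate. The 4 inAGTuC libraries were made from wells that each held many intact nuclei (Exp208_c12, Exp208_c14, Exp234_c11 and Exp261_c16). The 2 AGTuC libraries came from bulk nuclei that were opened with more detergent, and both belong to batch Exp125c (Exp125c_c01 and Exp125c_c02), so that for AGTuC the assay and the batch cannot be told apart. The labels do not say which libraries came from separate cultures, so that p-values measure only the spread between these libraries. Parental alleles were not separated in the reads.

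The scGRO–seq batches held between 223119 and 4928371 reads, the inAGTuC libraries between 623265 and 1462003, and the AGTuC libraries 2231837 and 4755740. Of 10 marker genes of ES cells, 8 to 10 had reads in every batch or library, with a summed level of 309 to 1681 sense reads per 1000000 reads (CPM) in scGRO–seq, 458 to 974 in inAGTuC and 1743 to 1859 in AGTuC. Markers of fibroblasts, primitive endoderm and neural progenitors summed to at most 32.1, 51.8 and 57.6 CPM in any batch or library. The neural progenitor markers summed to 52.4 and 57.6 CPM in the AGTuC libraries, above the 10.9 to 15.1 of inAGTuC and the 5.78 to 31.4 of scGRO–seq. In AGTuC Sox1 had 117 and 273 reads and Pax6 had 0 and 1, and their part in the differences of AGTuC was not tested. Pairs of scGRO–seq libraries shared a median of 0 cell barcodes and at most 96, and molecules found in more than 1 library were left out. The share of reads left out differed between assays and batches. It ran from 1.72% in Exp208_c01 to 47.4% in Exp236_c03 among the scGRO–seq libraries with kept cells, and was at least 32.6% in every library of Exp236. In inAGTuC it was 4.67% to 23.5%, and in AGTuC 0.511% and 0.245%.

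Imprinted genes are transcribed mainly from the copy inherited from a single parent, and the choice is kept by DNA methylation at control regions set in the germ line. Meg3, Rian and Mirg are non-coding RNA genes that lie in a row in the Dlk1–Dio3 region and are transcribed from the maternal copy. Rian hosts many C/D box snoRNAs and Mirg hosts many microRNAs. Kcnq1ot1 and Airn are long RNAs made from the paternal copy, antisense to Kcnq1 and to Igf2r, and are known for silencing neighbouring genes in cis. Igf2r encodes the receptor that carries insulin-like growth factor II to lysosomes. Peg3 encodes a zinc-finger protein, Peg10 a protein derived from a retrotransposon, Snrpn a protein of the splicing machinery, and Grb10 an adaptor that restrains growth factor signalling.

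A promoter sequence was matched in the RefSeq promoter table (GRCm38.p6) for 9 of the 10 genes, Peg10 being the gene without an entry. The 4 promoters below are each of 300 bases around an annotated start and are printed 5′ to 3′. They are shown because reads were followed from these starts along the long RNAs. That of Rian is included because Rian was the gene with most scGRO–seq reads. Capitals mark CpG dinucleotides, the letters CG, which read the same on both strands.
Meg3 promoter, chr12:109540746-109541045, plus strand: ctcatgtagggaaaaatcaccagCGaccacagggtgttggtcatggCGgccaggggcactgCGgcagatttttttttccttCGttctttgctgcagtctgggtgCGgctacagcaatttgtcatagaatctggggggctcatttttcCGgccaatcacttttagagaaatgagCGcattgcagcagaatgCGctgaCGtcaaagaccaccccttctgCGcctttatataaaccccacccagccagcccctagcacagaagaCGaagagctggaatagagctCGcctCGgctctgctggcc
Rian promoter, chr12:109603695-109603994, plus strand: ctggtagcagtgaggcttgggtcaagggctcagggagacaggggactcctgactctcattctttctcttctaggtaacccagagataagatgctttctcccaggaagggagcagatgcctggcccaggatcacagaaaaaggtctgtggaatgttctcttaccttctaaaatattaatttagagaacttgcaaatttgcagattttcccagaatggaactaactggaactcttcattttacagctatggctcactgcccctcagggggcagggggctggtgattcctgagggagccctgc
Kcnq1ot1 promoter, chr7:143296498-143296797, minus strand: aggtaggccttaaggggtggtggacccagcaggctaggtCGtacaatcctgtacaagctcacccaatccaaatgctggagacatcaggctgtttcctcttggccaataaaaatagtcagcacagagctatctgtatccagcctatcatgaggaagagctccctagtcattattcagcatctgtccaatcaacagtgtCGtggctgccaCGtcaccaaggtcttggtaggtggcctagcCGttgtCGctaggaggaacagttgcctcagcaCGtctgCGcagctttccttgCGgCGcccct
Airn promoter, chr17:12741061-12741360, plus strand: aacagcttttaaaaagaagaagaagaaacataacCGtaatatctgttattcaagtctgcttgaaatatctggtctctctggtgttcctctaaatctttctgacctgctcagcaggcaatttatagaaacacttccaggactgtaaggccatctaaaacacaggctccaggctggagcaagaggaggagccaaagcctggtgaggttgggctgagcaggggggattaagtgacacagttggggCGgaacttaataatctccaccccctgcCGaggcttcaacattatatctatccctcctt
The Meg3 promoter printed here held 13 CpG and that of Rian held 0, against a median of 7 over 32851 promoters of the same length. At least as many were found in 37.9% of all promoters for Meg3 and in 100% for Rian. The promoters of Kcnq1ot1 and Airn held 9 and 3, and 45.8% and 76.7% of promoters held at least as many. The count was highest at Grb10, with 45 CpG, and at Igf2r, with 34, which 1.93% and 7.73% of promoters reached. The table holds another start for Meg3 and for Grb10, with 1 and 9 CpG. It holds Snrpn starts with 2, 3, 4 and 7 CpG, and the promoters of Mirg and Peg3 held 10 and 13.

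In pooled reads of single nuclei and of wells of intact nuclei, the Meg3, Rian and Mirg genes were transcribed as an unbroken stretch. They gave no read on their strand in the bulk AGTuC libraries. From the start of Meg3 to the end of Mirg, chr12:109540996-109749458, the stretch covers 208.463 kb, and it includes sequence between the genes that RefSeq assigns to none of them. Meg3 covers chr12:109540996-109571729, Rian chr12:109603945-109661716 and Mirg chr12:109734981-109749458, all on the plus strand. Levels that compare genes or regions are given as CPM per kb of length (RPKM).

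In bins of 5 kb, without reads on annotated small RNA genes, all 42 bins of the stretch were above every bin of the 50 kb before Meg3 and the 50 kb after Mirg, in pooled scGRO–seq and in pooled inAGTuC. In scGRO–seq the bins held between 0.583 and 21.6 RPKM, with a median of 2.27, whereas the highest flanking bins held 0.257 RPKM before the stretch and 0.103 after it. In inAGTuC the bins held between 0.642 and 24.9 RPKM, with a median of 2.84, and the highest flanking bins held 0.321 and 0.138. Most inAGTuC reads on the stretch, 4213, came from Exp261_c16, and single libraries were not read bin by bin. In AGTuC no bin was above 0.0859 RPKM.

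The sequence between the genes also carried reads, at mean levels between 1.31 and 3.20 RPKM in scGRO–seq and inAGTuC. Over the scGRO–seq batches, and without small RNA reads, the mean level was 3.38 RPKM on Meg3, 2.44 between Meg3 and Rian and 4.16 on Rian. It was 1.31 between Rian and Mirg and 1.50 on Mirg. Only reads within annotated small RNA genes were left out, and Rian was uneven without them. In pooled scGRO–seq its bins 65 to 95 kb from the start of Meg3 held 0.583 to 2.80 RPKM. Those from 95 to 120 kb, where most small RNA reads of Rian lay, held 7.34 to 21.6. Whether reads next to snoRNA genes raise the level of Rian was not tested. In the inAGTuC libraries the same means were 5.12, 3.20, 5.45, 1.70 and 1.75 RPKM. The medians there were 3.34, 1.87, 2.21, 1.08 and 1.17 RPKM, so that Rian was above Meg3 in the mean and below it in the median. The SD was 5.35 RPKM for Meg3 and 7.33 for Rian. The start of Rian, which has no CpG in the sequence above, thus lay inside sequence already carrying reads. On the other strand of the stretch the mean was 0.636 RPKM in scGRO–seq, 0.869 in inAGTuC and 0.000504 in AGTuC. As reads on the strand of the genes, the whole stretch held 594, 566, 266 and 4213 in the inAGTuC libraries and 1 and 7 in the AGTuC libraries.

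**Figure D1:**
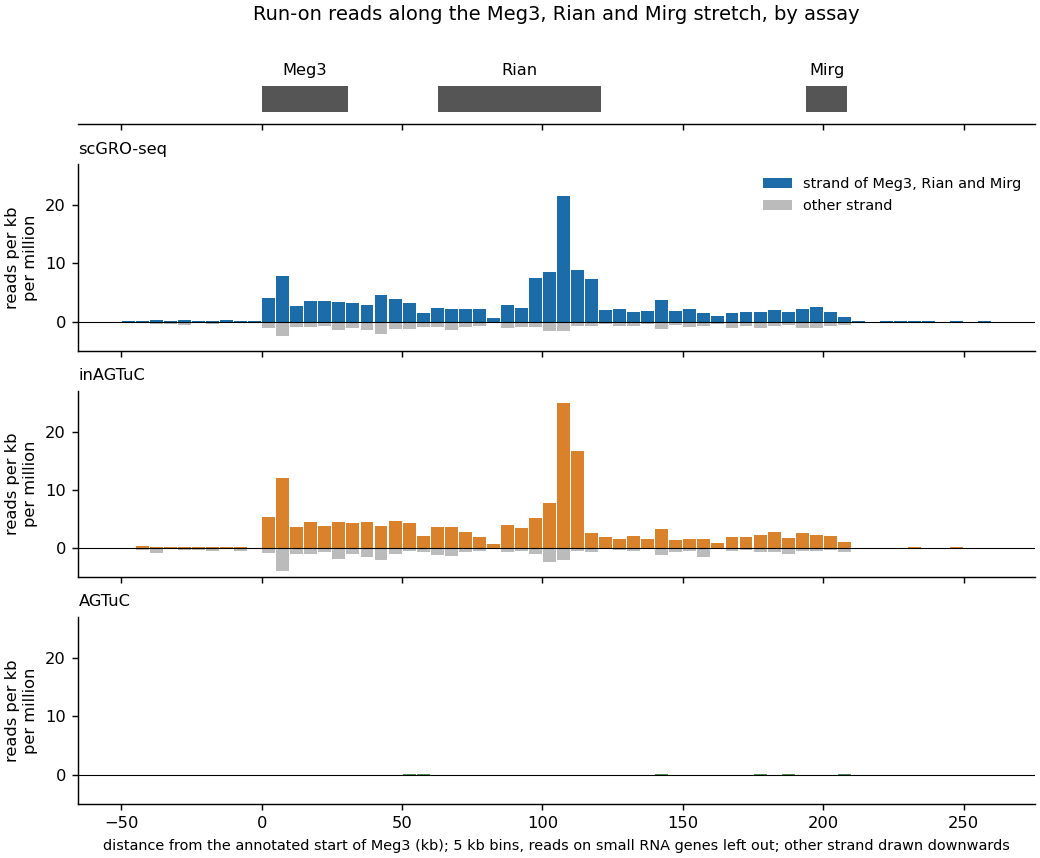
Level in RPKM on the strand of Meg3, Rian and Mirg (coloured bars) and on the other strand (grey, downwards) in 5 kb bins along the stretch from Meg3 to Mirg and 50 kb on each side, for pooled scGRO–seq, inAGTuC and AGTuC reads without small RNA reads. The coloured bars fill all 42 bins between the start of Meg3 and the end of Mirg in the upper assays, with the tallest bin, at 21.6 and 24.9, inside Rian, and are close to empty in AGTuC.

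Meg3, the gene at the head of the stretch, had no read in Exp156, which at its depth allows up to 13.4 CPM, and had a median of 118 and a highest value of 186 CPM over the 10 scGRO–seq batches. The inAGTuC libraries Exp208_c12, Exp208_c14, Exp234_c11 and Exp261_c16 had 51.3, 161, 34.2 and 390 CPM, and both AGTuC libraries had 0. The scGRO–seq and inAGTuC values overlapped. The AGTuC libraries were below every inAGTuC library and below every scGRO–seq batch but Exp156, and Exp160, with 8.08 CPM, was far below the other batches.

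Rian, the host of the snoRNAs, had a lowest value of 0, a median of 445 and a highest value of 1366 CPM in scGRO–seq. Its inAGTuC libraries had 693, 273, 66.3 and 1514 CPM in the same order, and AGTuC had 0 in both libraries. Exp156 and Exp160 were again lowest, with 2 and 0 reads, and Exp264a was highest.

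Mirg, the microRNA host, had 2.69 CPM in the lowest scGRO–seq batch, a median of 21.1 and a highest value of 47. The inAGTuC libraries had 9.63, 24.3, 6.16 and 65.3 CPM, and AGTuC had 0 in both libraries. The low scGRO–seq batches were again Exp160 and Exp156, and Exp261_c16 was the highest inAGTuC library for all of Meg3, Rian and Mirg.

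No read in 6987577 AGTuC reads sets a bound rather than a fold change. With a floor of 3 counts over the group, 0.429 CPM, the AGTuC level was at least 370-fold lower than the inAGTuC mean for Meg3, at least 1483-fold lower for Rian and at least 61.4-fold lower for Mirg. Against the lowest inAGTuC library, the bounds were 79.7-fold, 155-fold and 14.3-fold. The lowest library was Exp234_c11 for all of these genes. Antisense reads over all genes made up 52.4% of reads there, against 19.2% to 32.2% in the other inAGTuC libraries. The other strand held 60.9% of Meg3 reads and 64% of Mirg reads in Exp234_c11, and the part of this in the bounds was not tested. Without reads on small RNA genes the bounds for Rian were 733-fold against the mean and 129-fold against the lowest library. Reads next to these small RNA genes stayed in. Low levels were not confined to AGTuC, since scGRO–seq batches Exp156 and Exp160 had 2 and 0 reads on Rian. Among the 4784 genes whose mean inAGTuC level was that of Mirg or higher, 5 had no read in AGTuC, namely Antxrl, Gria1, Meg3, Mirg and Rian, of which Antxrl and Gria1 were chosen after their values were seen.

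Differences between assays were tested with limma (voom), with all 16 batches and libraries in 1 fit and Benjamini-Hochberg adjustment over 16001 genes. Between AGTuC and inAGTuC, 7394 genes passed the threshold of adjusted p under 0.05, which is 46.2% of the genes tested, with 31.4% higher and 14.8% lower in AGTuC. Of the 10 imprinted genes 4 passed, all lower in AGTuC. These were Meg3 (adjusted p = 0.000185), Rian (0.00213), Mirg (5.31e-05) and Airn (0.00650). With batch as a random block Airn was no longer called. The median log2 difference of the 10 genes was -1.65, with Meg3, Rian and Mirg at their fitted values or at their bounds, and that of all genes tested was 0.72. Without pile-ups these medians were -0.87 and 0.64. The median of all genes was 0.03 with median-of-ratios scaling and 0.16 with quantile normalization, under which 2829 genes were higher and 3561 lower, and 3012 higher and 2339 lower, in place of 5021 and 2373. The call of Rian was lost under both scalings, with adjusted p = 0.0603 and 0.0572, and without Exp125c_c02, with a log2 difference of -10.70 and adjusted p = 0.0604, where AGTuC is 1 library that is assumed to vary like the other groups.

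No difference between single nuclei and wells of intact nuclei passed the same fit. Between scGRO–seq and inAGTuC no gene passed the limma threshold, 0% of the 16001 tested, and none of the 10 genes did. Over all genes 900 had an unadjusted p under 0.05, and Igf2r alone of the 10 was among them. Both assay comparisons used the same inAGTuC libraries. The log2 difference of scGRO–seq over inAGTuC was -0.49 (SE 0.67) for Meg3 and -0.89 (SE 1.00) for Rian, and became 0.31 and 0.46 without Exp156, Exp160 and library c16 of Exp260b, which were left out because their Meg3 and Rian levels were low, so that a rise was given by the choice. With batch as a random block the differences were -0.24 and -0.76, and again no gene passed. Exp208 is the single batch with both assays in this fit, and within it Meg3 had 117 CPM in scGRO–seq and 51.3 and 161 in inAGTuC, and Rian had 297 CPM against 693 and 273. Exp234 and Exp261 also hold both assays, but their scGRO–seq libraries are not of the 10 batches and entered no fit. Over all their barcodes Meg3 had 26.4 CPM in scGRO–seq library Exp234_c09 and 34.2 in inAGTuC library Exp234_c11, and Rian had 26.4 and 66.3. In Exp234_c09 these were 2 reads for each gene, under the 39.6 CPM that 3 counts give. In Exp261 Meg3 had 16.7 and 282 CPM and Rian 43.8 and 1373 CPM in scGRO–seq libraries c11 and c15, against 390 and 1514 in inAGTuC library c16. Antisense reads over all genes made up 51.1% of reads in Exp234_c09, 52.4% in Exp234_c11, 49.7% in Exp261_c11 and 21.5% in Exp261_c15. ES cell markers summed to 50.1 CPM in Exp261_c11 and 505 in Exp261_c15. The part of these in the values was not tested.

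**Figure D2:**
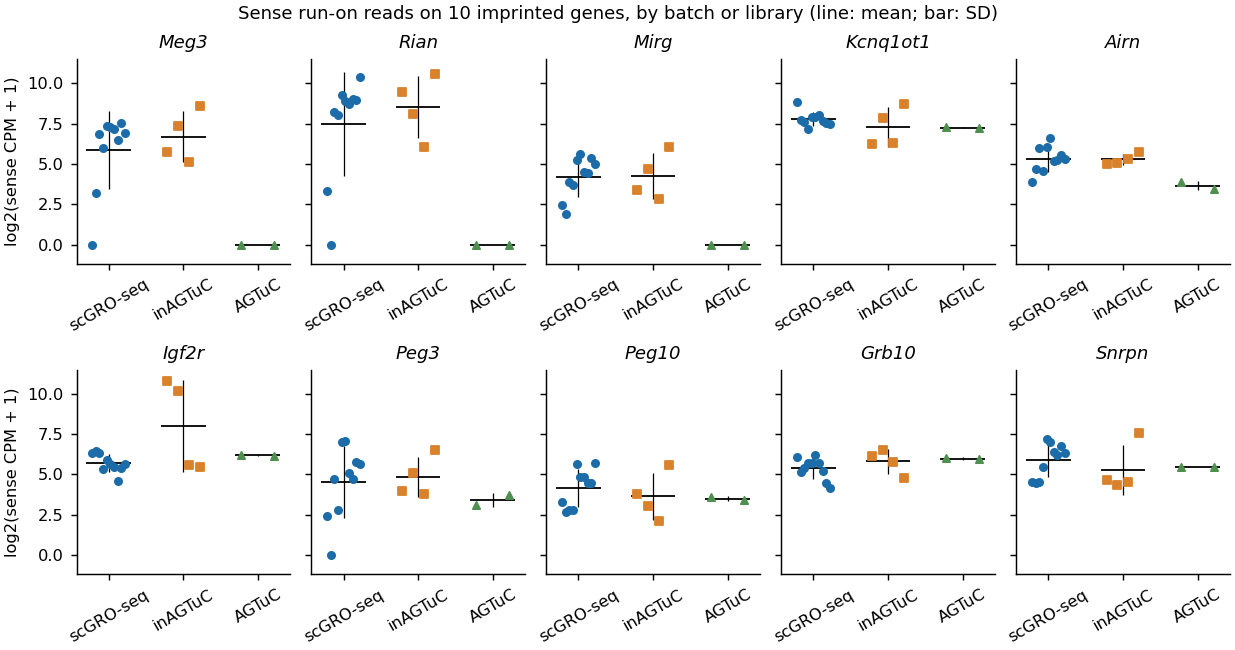
Sense reads on each of the 10 genes as log2(CPM + 1), for the 10 scGRO–seq batches (circles), the 4 inAGTuC libraries (squares) and the 2 AGTuC libraries (triangles), with the mean as a line and the SD as a bar. Meg3, Rian and Mirg lie at 0 in AGTuC, whereas Kcnq1ot1, Igf2r, Grb10 and Snrpn in AGTuC lie within the range of the other assays.

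The low Meg3, Rian and Mirg levels of some scGRO–seq material were also seen within a batch. Exp260b has 6 libraries, of which c16 holds 94 cells, 701315 reads and a median of 7249 UMIs per cell, against 3440 to 4390 in the others. In c16 there were 2 reads on Meg3, 7 on Rian and 0 on Mirg, the latter allowing up to 4.28 CPM. In CPM these values were 2.85 for Meg3 and 9.98 for Rian, whereas the other libraries had 84.2 to 191 for Meg3, 360 to 1075 for Rian and 7.65 to 57.4 for Mirg. Library c16 did not overlap with any of the other 5 for these genes. In all, 8 of the 10 genes were lowest in c16. How many of all genes were lowest there was not counted, so this is not read as particular to these genes. Kcnq1ot1 had 104 CPM against 176 to 386 in the others, Snrpn 39.9 against 66.3 to 113, Airn 25.7 against 28.5 to 70.2, and Peg3 and Peg10 both 8.56 against lowest values of 12.8 and 17.6, whereas Igf2r and Grb10 lay inside the range of the others. Over all reads of the libraries, the ES cell markers summed to 362 CPM in c16 against 314 to 630, and antisense reads over all genes made up 37.5% of reads against 19.6% to 34.5%. The part of depth and antisense share in the low values was not tested.

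**Figure D3:**
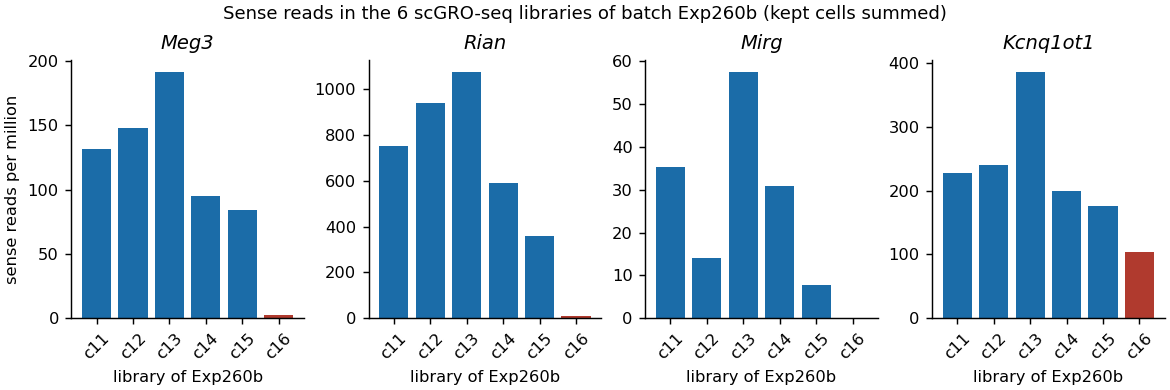
Sense CPM on Meg3, Rian, Mirg and Kcnq1ot1 in the 6 libraries of scGRO–seq batch Exp260b, 1 bar per library. Library c16 (red) holds 2.85, 9.98 and 0 for Meg3, Rian and Mirg, below every other library, and 104 for Kcnq1ot1.

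Within the stretch, 19 snoRNA genes took 4124 scGRO–seq reads, 1899 inAGTuC reads and no AGTuC read. Reads on small RNA genes made up 39.8% of Rian reads in pooled scGRO–seq and 44.3% in pooled inAGTuC. This share ran from 16.5% in Exp234_c11 to 81.7% in Exp208_c12 among the inAGTuC libraries, and without these reads Rian had 127, 129, 55.4 and 948 CPM in Exp208_c12, Exp208_c14, Exp234_c11 and Exp261_c16. Exp208_c12, second highest on all reads, was then level with Exp208_c14.

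The 6 snoRNA genes with most scGRO–seq reads are printed 5′ to 3′ from the GRCm38 genome, since their ends are where reads collected. Capitals mark TGATGA, letters of the C box, and CTGA, letters of the D box, searched on the strand of the RNA. Every match is marked, so that a marked CTGA need not be the D box.
Gm23787, chr12:109684962-109685034, plus strand: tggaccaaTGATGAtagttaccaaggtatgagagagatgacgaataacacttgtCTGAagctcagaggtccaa
DQ267100, chr12:109649617-109649687, plus strand: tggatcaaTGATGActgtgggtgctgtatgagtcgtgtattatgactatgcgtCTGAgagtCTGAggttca
DQ267102, chr12:109656345-109656415, plus strand: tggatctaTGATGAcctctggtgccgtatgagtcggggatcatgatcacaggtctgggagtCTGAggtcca
AF357425, chr12:109636012-109636080, plus strand: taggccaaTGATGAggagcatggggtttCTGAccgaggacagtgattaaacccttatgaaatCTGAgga
AF357355, chr12:109654627-109654697, plus strand: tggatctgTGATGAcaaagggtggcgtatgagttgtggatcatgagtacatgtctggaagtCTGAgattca
AF357426, chr12:109642838-109642904, plus strand: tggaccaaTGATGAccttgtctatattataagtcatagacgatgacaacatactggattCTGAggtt
Gm23787 lies between Rian and Mirg, and the other 5 lie in Rian. Both motifs occurred in 14 of the 19 snoRNA genes of the stretch (73.7%) and in 24.5% of the 1330 annotated snoRNA genes, where CTGA alone occurred in 76.2%. Gm23787 had 1155 scGRO–seq reads, DQ267100 had 1048 and DQ267102 had 492, followed by AF357425 with 311, AF357355 with 298 and AF357426 with 239. Of the scGRO–seq reads on the 19 genes, 67.2% ended in the last 10 bases of the annotated snoRNA, and 66.2% did in inAGTuC. At DQ267100 the shares were 94.3% and 90.6%, and at Gm23787 they were 40.9% and 43.6%. The 57 microRNA hairpins of the stretch took 147 scGRO–seq and 56 inAGTuC reads, of which 10.9% and 10.7% ended in the last 10 bases. Whether reads at the ends of snoRNA genes mark RNA being made was not tested.

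Kcnq1ot1, the RNA antisense to the potassium channel gene Kcnq1, had reads in every batch and library, and its levels overlapped between all 3 assays. It covers chr7:143213111-143296547 on the minus strand, 83.437 kb. The scGRO–seq batches had between 140 and 457 CPM, with a median of 204. The inAGTuC libraries Exp208_c12, Exp208_c14, Exp234_c11 and Exp261_c16 had 75.4, 232, 75.9 and 423 CPM, and the AGTuC libraries had 154 and 147 CPM. Exp156, where Meg3 had no read, was the highest scGRO–seq batch for Kcnq1ot1. The log2 difference of AGTuC over inAGTuC was -0.05 (SE 0.52, adjusted p = 0.947 in limma) and -0.80 with median-of-ratios scaling (adjusted p = 0.0998), and that of scGRO–seq over inAGTuC was 0.48 (SE 0.36, adjusted p = 0.907).

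The transcribed stretch of Kcnq1ot1 was read from the annotated start in bins of 5 kb, as far as reads stayed above the 95th percentile of bins 20 kb or more from any annotated gene without a pair of low bins in a row. It reached 100 kb, the end of the window, in pooled scGRO–seq and in pooled AGTuC, and 80 kb in pooled inAGTuC. The single inAGTuC libraries reached 55, 65, 65 and 85 kb, and both AGTuC libraries reached 100 kb. In 2 kb bins the inAGTuC libraries reached 8, 62, 6 and 84 kb and the AGTuC libraries 88 and 98 kb, and with no low bin passed over the inAGTuC libraries reached 15, 65, 40 and 85 kb. The pools differ in depth, so these lengths were not measured at a matched depth.

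Where the level dropped was seen from the counts themselves. In scGRO–seq the bins held between 128 and 253 reads up to 60 kb, then 81 and 59, and 18 in the bin from 70 kb, before the annotated end at 83.437 kb. In inAGTuC they held 26, 12 and 5 in the same last bins. In AGTuC these bins held 104, 87 and 59 reads, against 107 in the first bin, followed by 31, 20 and lower counts down to 7 in the last bin. The share of reads on the other strand of the Kcnq1ot1 span was 19.7% in both scGRO–seq and inAGTuC and 1.23% in AGTuC, against medians over genes of 33.7%, 34.9% and 9.03%.

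Airn, the antisense RNA that begins in an intron of Igf2r, covers chr17:12741311-12859884 on the plus strand, 118.574 kb, and leaves the Igf2r gene in its first part. It had between 13.4 and 96.4 CPM in the scGRO–seq batches, with a median of 37.6. The inAGTuC libraries had 30.5, 32.9, 39 and 52.2 CPM, and the AGTuC libraries had 13.4 and 9.88. AGTuC did not overlap with inAGTuC, and in scGRO–seq only the batch of 13.4 CPM, Exp156, came down to its level. Airn was lower in AGTuC by limma, with a log2 difference of -1.76 (SE 0.51, adjusted p = 0.00650), and without Exp125c_c02 the difference was -1.51 with adjusted p = 0.110. With batch as a random block it was -1.60, with adjusted p = 0.0519. The order is the opposite when each library is set against its own intergenic bins, whose level is lower in AGTuC (0.00659 and 0.00692 RPKM) than in inAGTuC (0.0392 to 0.0796 RPKM). Airn was then 5.999 ± 2.67 times background in inAGTuC (SD, n = 4) and 14.6 ± 3.64 times in AGTuC (SD, n = 2), as values with no test. This was not particular to Airn. Mean ratios in inAGTuC and AGTuC were 50.2 and 267 for Kcnq1ot1, 31.9 and 59.6 for Peg3, and 25.9 and 116 for Peg10. They were 10.5 and 86.3 for Grb10 and 2.74 and 13.8 for Snrpn. Igf2r went the other way, with 152 and 122, where inAGTuC includes a pile-up described below.

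The transcribed stretch of Airn reached 85 kb in pooled scGRO–seq, 75 kb in pooled inAGTuC and 65 kb in pooled AGTuC. The single inAGTuC libraries reached 5, 20, 30 and 40 kb and the AGTuC libraries 45 and 35 kb. At the 99th percentile the pooled lengths were 40, 40 and 35 kb and in 2 kb bins 64, 16 and 34 kb, and inAGTuC reached 30 kb with no low bin passed over and 95 kb with all deposited reads. The order of the assays thus changed with the setting, so that no difference in length between them is read from these values. The level was higher inside Igf2r than past it in every assay. In scGRO–seq the means were 0.588 and 0.304 RPKM, in inAGTuC 0.560 and 0.252, and in AGTuC 0.161 and 0.0787.

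Igf2r, which covers chr17:12682406-12769706 on the minus strand, shares its first part with Airn, and reads there were found on both strands. Over this overlap the strand of Igf2r had 0.717 RPKM in scGRO–seq, 0.781 in inAGTuC and 1.02 in AGTuC. In AGTuC the first 30 kb of Airn held 47 reads on the strand of Airn and 204 on that of Igf2r. Other-strand reads on the whole Airn span were 39.4% in scGRO–seq, 43.7% in inAGTuC and 72.9% in AGTuC. On the Igf2r span they were 42.7%, 7.58% and 5.83%, where inAGTuC includes the pile-up. The medians over genes were 33.7%, 34.9% and 9.03%, so that reads on both strands are common at any gene in scGRO–seq and inAGTuC. How many reads on the strand of Airn inside Igf2r come from Airn was not tested.

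**Figure D4:**
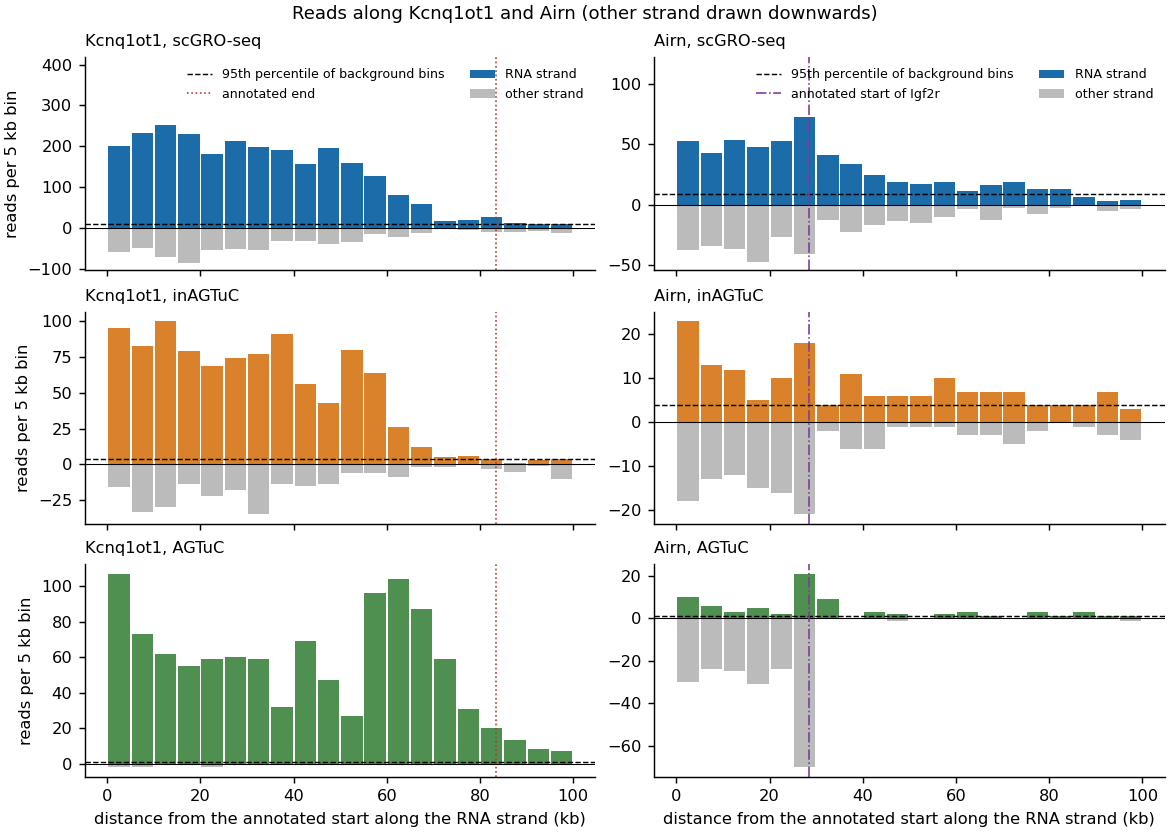
Reads per 5 kb bin from the annotated start along Kcnq1ot1 (left) and Airn (right) on the strand of the RNA (coloured) and on the other strand (grey, downwards), for each pooled assay. The dashed line is the 95th percentile of background bins. Kcnq1ot1 drops to 18 reads per bin from 70 kb in scGRO–seq and still holds 59 in AGTuC, and the grey bars of Airn in AGTuC stop at the start of Igf2r.

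Most Igf2r reads in inAGTuC came from a pile-up in 2 libraries. Exp208_c12 and Exp208_c14 had 1746 and 1156 CPM on Igf2r, and Exp234_c11 and Exp261_c16 had 47.2 and 43.3. The bin chr17:12733950-12733999, in an intron of Igf2r, held 1044 of 1088 reads in Exp208_c12 and 860 of 950 in Exp208_c14, most of them between positions 12733970 and 12733976. It held 0 reads in the other inAGTuC libraries, 5 of 582 in scGRO–seq and 0 of 501 in AGTuC.

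Outside that bin the inAGTuC libraries had 70.6, 110, 47.2 and 43.3 CPM on Igf2r. The AGTuC libraries had 72.6 and 71.3 CPM, and the scGRO–seq batches had 23.1 to 86.2 with a median of 49.3 over all reads. The AGTuC libraries lay inside the inAGTuC range. On all reads the log2 difference of AGTuC over inAGTuC was -1.78 (adjusted p = 0.0854 in limma) and without pile-ups it was 0.20 (adjusted p = 0.743). Igf2r was called lower with median-of-ratios scaling (-2.36, adjusted p = 0.0479) and without Exp234_c11 (-2.63, adjusted p = 0.0130) or without Exp261_c16 (-2.63, adjusted p = 0.00736).

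Peg3, a paternally expressed coding gene, varied widely between batches, with a mean of 46.3 ± 48.8 CPM (SD, n = 10) in scGRO–seq. On chr7:6705960-6730419, minus strand, it had between 0 and 136 CPM there with a median of 29.4, where the 0 of Exp160 allows up to 8.08 CPM. The inAGTuC libraries Exp208_c12, Exp208_c14, Exp234_c11 and Exp261_c16 had 14.4, 32.9, 13 and 92.1 CPM, and the AGTuC libraries had 7.62 and 12.2. The AGTuC values were below every inAGTuC value, with a log2 difference of -1.53 (SE 0.94) that did not pass the test (adjusted p = 0.177). Set against intergenic bins, Peg3 was 31.9 ± 33.6 times background in inAGTuC (SD, n = 4) and 59.6 ± 17.5 times in AGTuC (SD, n = 2).

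Peg10, on chr6:4747306-4760517, plus strand, had between 5.39 and 51.4 CPM in scGRO–seq with a median of 21.2. The inAGTuC libraries had 12.8, 7.30, 3.42 and 46.7 CPM and the AGTuC libraries 11.2 and 9.46, which lie inside the inAGTuC range. The log2 difference of AGTuC over inAGTuC was -0.20 (SE 0.74, adjusted p = 0.836), and it turned to 0.14 without the first and last 500 bases of the gene.

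Snrpn has the longest span, chr7:59982495-60450177, minus strand, because RefSeq includes transcripts that start far upstream. Snurf and Snhg14 overlap this span on the same strand, so a read there can count for more than 1 gene. The last part, chr7:59982495-60005199, which holds the short transcripts, had 2.28 RPKM in scGRO–seq, 2.06 in inAGTuC and 1.43 in AGTuC. The upstream part had 0.0464, 0.0399 and 0.0246 RPKM. Over the whole span scGRO–seq had 21.6 to 144 CPM with a median of 76, the inAGTuC libraries 24.1, 19.5, 22.6 and 192, and both AGTuC libraries 43.5. Exp261_c16 was high and the other inAGTuC libraries were close together. The log2 difference of AGTuC over inAGTuC was 0.12 (SE 0.69, adjusted p = 0.897), and it turned to -0.64 and -0.68 with the other scalings.

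Grb10, on chr11:11930499-12037420, minus strand, overlapped between all 3 assays. It had 17.1 to 72.9 CPM in scGRO–seq with a median of 46, and 70.6, 91.3, 54 and 26.1 CPM in the inAGTuC libraries. The AGTuC libraries had 64.5 and 59.9 CPM, inside that range. The log2 difference of AGTuC over inAGTuC was 0.20 (SE 0.50, adjusted p = 0.759), and it turned to -0.46 and -0.47 with the other scalings.

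By mean level per length, the order in scGRO–seq was Rian at 7.68 RPKM, Meg3 at 3.38, Kcnq1ot1 at 2.75, Peg3 at 1.89, Peg10 at 1.70, Mirg at 1.58, Igf2r at 0.635, Grb10 at 0.417, Airn at 0.372 and Snrpn at 0.155. Every pair of neighbours in this order overlapped within their SD over batches. Snrpn is last over its whole span, whereas its part with the short transcripts had 2.28 RPKM in scGRO–seq and its upstream part 0.0464. Among all 24746 genes Rian ranked 148, Meg3 389 and Kcnq1ot1 543, and Kcnq1ot1 ranked 760 in inAGTuC and 5580 in AGTuC. In inAGTuC the order began with Rian at 11 RPKM, Igf2r at 8.57, which includes the pile-up, Meg3 at 5.17 and Kcnq1ot1 at 2.42, again with all neighbours overlapping. Without reads on small RNA genes Rian had 4.16 RPKM in scGRO–seq and 5.45 in inAGTuC, and its rank is given over all reads. In AGTuC the order began with Kcnq1ot1 at 1.80 RPKM, apart from Igf2r at 0.824, and Meg3, Mirg and Rian were last at 0.

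The share of sense reads in the first 500 bases of a gene was higher in AGTuC than in the other assays, over all genes and at most of the members with AGTuC reads, with Peg10 and Snrpn as the exceptions. Over 21799 genes of at least 2 kb it was 20.3% in AGTuC, 3.10% in inAGTuC and 2.28% in scGRO–seq, as pooled values with no test. In AGTuC Peg3 had 20% of its reads there (15 of 75), Grb10 10.0% (43 of 429), Igf2r 9.98% (50 of 501), Peg10 7.14%, Airn 6.49% and Kcnq1ot1 3.74% (39 of 1044). Peg10 had 11.49% in inAGTuC, and Snrpn had no read there in inAGTuC or AGTuC. In scGRO–seq the shares of the 10 genes ran from 0.0842% at Snrpn to 6.17% at Peg10.

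In single cells pooled over batches, Rian reads were the most widespread, and 39.8% of them lay on small RNA genes. At least 1 sense read was found in 75% of the 2526 cells for Rian (95% Wilson interval 73.3% to 76.7%), 54.7% for Kcnq1ot1 (52.7% to 56.6%), 38.8% for Meg3 (37.0% to 40.8%) and 31.7% for Snrpn (29.96% to 33.6%). Rian led the 10 genes in 8 of 10 batches, with up to 95.6% of cells in Exp264a. In Exp156 and Exp160 it was read in 1.94% and 0% of cells, where Kcnq1ot1 was read in 64.1% and 47.4%. The other genes were read in 11.8% (Mirg) to 23.3% (Peg3) of cells. The intervals cover counting error only, and a cell without a read may transcribe the gene below this depth, a median of 3430 UMIs per cell. The most reads of a gene in a single cell were 17 for Kcnq1ot1 and 16 for Rian.

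Cells with 2 or more reads of the same gene, as several polymerases on a gene at a time would give, were compared with the number expected when cell identity is permuted among the reads of a library, and no member passed the test over batches. Meg3 had 331 such cells where 331 were expected, Rian 1456 where 1431 were expected, and Kcnq1ot1 608 where 618 were expected. Mirg had 31 and 31.1, Igf2r 81 and 80.9, Peg3 177 and 175, Grb10 64 and 66.5, and Snrpn 242 and 242. The ratio was furthest above 1 at Airn, with 97 cells where 85.3 were expected (ratio 1.14, above in 6 of 10 batches), and at Peg10, with 50 and 45.7 (ratio 1.09).

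None of these differences passed an exact sign-flip test, two-sided, in which batches are the replicates and p-values are adjusted over 9206 genes, of which 0% passed. The unadjusted exact p was 0.287 for Airn, 0.348 for Peg10, 0.555 for Rian and 0.980 for Meg3, and the smallest p that 10 batches allow is 0.00195. Over 9206 genes a call needed at least 360 genes at that smallest p, or more at a higher p, and 35 reached it, so that the absence of calls does not show that observed and expected numbers were the same. An unadjusted p under 0.05 was found for 526 of all genes and for none of the 10. The median ratio over all genes was 1.05. Read pairs of the same cell at least 50 bases apart, another count, had ratios from 0.871 at Mirg to 1.11 at Kcnq1ot1, where 2333 pairs were seen and 2110 expected (exact p = 0.531, adjusted p = 0.966), against a median of 0.989 over all genes. For the 45 pairs of different members, cells with reads of both numbered 12147 in sum where 12507 were expected, and the ratio was above 1 for 9 pairs, with a range of 0.814 to 1.05.

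**Figure D5:**
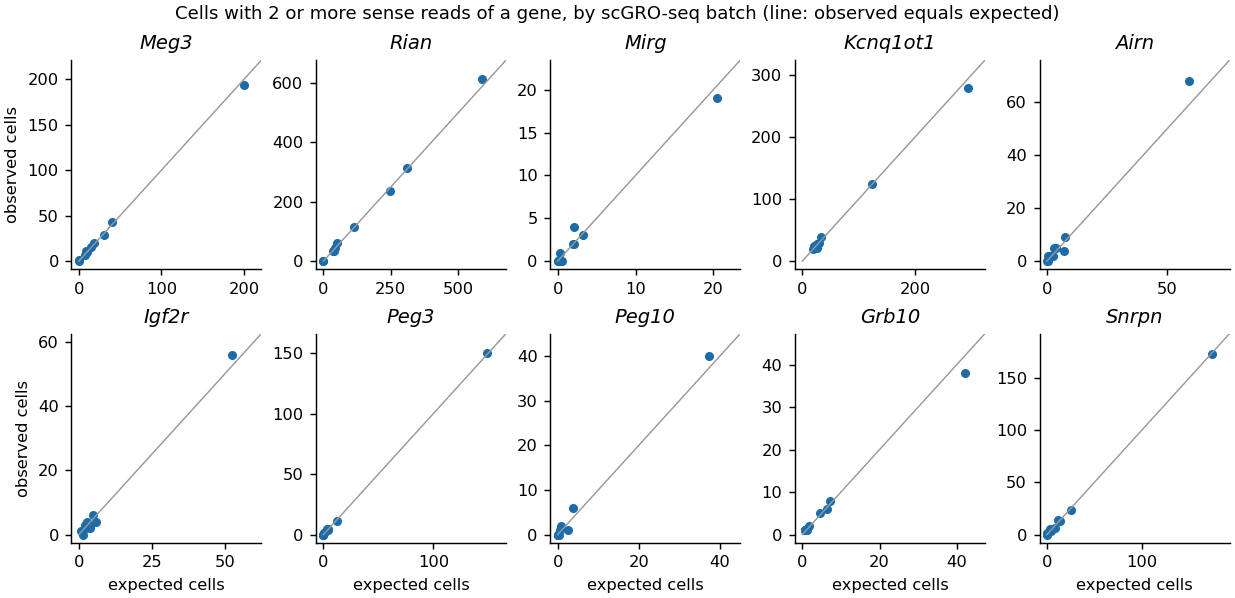
Cells with 2 or more sense reads of a gene, observed (vertical) against expected from reads permuted within library (horizontal), 1 point per scGRO–seq batch. The line marks equality, and the points lie close to it, with Exp236, the largest batch, at the upper right and Airn the gene whose point there lies highest relative to the line.

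Other imprinted genes were taken from a list of 60 genes, of which 47 had enough reads for the test. Between AGTuC and inAGTuC 17 of the 47 passed (36.2%, against 46.2% of all genes tested), 8 higher and 9 lower, with a median log2 difference of 0.10 against 0.72 over all genes. The split was 5 higher and 19 lower with median-of-ratios scaling (51.1%, against 39.9% of all genes) and 6 higher and 11 lower with quantile normalization (36.2%, against 33.4%), and the number that passed was 11 without Exp125c_c01 (23.4%, against 27.7% of all genes) and 9 without Exp125c_c02 (20%, against 21.8%). With batch as a random block 13 of the 47 passed (27.7%, against 33.9% of all genes), and with limma-trend 9 did (19.1%, against 20.5%). Between scGRO–seq and inAGTuC none passed in limma, and 1 had an unadjusted p under 0.05.

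Lower in AGTuC were the retrotransposon-derived gene Rtl1, which lies within the Dlk1–Dio3 region, the transporter gene Slc22a3, which neighbours Igf2r, and the potassium channel gene Kcnk9, all with 0 reads in AGTuC and means of 7.22, 8.76 and 3.73 CPM in inAGTuC. Their adjusted p in limma was 0.000558, 2.99e-05 and 0.000606, and with limma-trend that of Rtl1 was 0.0528 and that of Kcnk9 0.0915. Kcnk9 also missed the threshold with quantile normalization (adjusted p = 0.0707) and had too few reads to enter the test with a mapping quality of at least 10 and without Exp234_c11, Exp236 or Exp260b. How many Rtl1 reads belong to the other-strand reads of the stretch from Meg3 to Mirg was not tested. That strand had a mean of 0.869 RPKM in inAGTuC and 0.000504 in AGTuC. Usp29, next to Peg3, fell by 2.95 on the log2 scale (adjusted p = 0.000358 in limma), with 29.3 CPM in inAGTuC and 3.82 in AGTuC. Sfmbt2, a Polycomb group gene, fell by 3.91 (adjusted p = 0.00187), with 43.8 to 741 CPM in single inAGTuC libraries and 7.36 and 8.96 in AGTuC.

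Higher in AGTuC were Tssc4 (log2 difference 3.79, adjusted p = 7.64e-05) and Cdkn1c, an inhibitor of cyclin-dependent kinases (2.57, adjusted p = 0.00107), both in the Kcnq1ot1 domain, and Mcts2 (2.94, adjusted p = 0.00101). None of the 3 entered the test without the first and last 500 bases of genes. The call of Cdkn1c was lost without pile-ups (0.71, adjusted p = 0.387) and that of Mcts2 with all deposited reads (1.71, adjusted p = 0.0620). Their mean levels were 24.6, 21.5 and 10.1 CPM in AGTuC and 2.23, 3.39 and 1.47 in inAGTuC. Kcnq1ot1 itself differed by -0.05 in the same comparison. Dlk1, the coding gene before Meg3 in the same region, had at most 6.42 CPM in any batch or library, with means of 2.33, 2.80 and 1.76 CPM in scGRO–seq, inAGTuC and AGTuC.

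Genes that followed Meg3 most closely over the 16 batches and libraries, by Pearson correlation of log2 CPM over 16001 genes, were Mirg (r = 0.96), Esrp1 (0.96), which encodes a splicing regulator of epithelial cells, and Ust (0.96). All 16 points share the assay split, and the AGTuC libraries of a single batch are low for each of these genes. Esrp1 had means of 52 CPM in scGRO–seq, 68.8 in inAGTuC and 4.76 in AGTuC, and Ust had 72.3, 70.7 and 9.88. Rian came sixth, with r = 0.95.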

How the data were processed

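Libraries of scGRO–seq, inAGTuC and AGTuC, all made from nuclei of the V6.5 line of mouse ES cells, were used. The authors removed adaptors with Cutadapt, split reads by cell barcode with Flexbar, discarded ribosomal reads, mapped the rest to mm10 (GRCm38) with bowtie2 and removed duplicates with UMI-tools, and versions are not given in the sources used here. The deposited lists hold 1 entry per remaining read, with the mapping quality as the score, which was not used as a level. Each RNA lies on the strand opposite to its entry. Some aligned reads of repeats may be placed wrongly, and 1 alternative required a mapping quality of at least 10.

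Entries were counted by strand on curated RefSeq spans as counts and scaled to the reads of the batch or library. The 10 genes and all lists were chosen with earlier results of these data known. Named besides them were at most 8 called genes of the imprinted list, by adjusted p, and the 3 genes most correlated with Meg3. Molecules in more than 1 library were left out, and the scGRO–seq list of Exp261_c16, which copies an inAGTuC list, was left out whole. Batches named by the study with at least 24 kept cells per library were used, and the other scGRO–seq libraries entered no comparison. Genes with at least 50 UMIs entered limma 3.58.1 (R 4.3.3), in which a replicate was a batch for scGRO–seq and a library otherwise, and the fit was tested on simulated data. Cells with 2 or more reads were tested with an exact sign-flip test over batches for genes with at least 100 reads, the expected number being the mean under permutation within library. Python 3.11.15 with NumPy 2.4.6, pandas 2.3.3 and SciPy 1.17.1 was used, and figures were drawn with Matplotlib 3.10.9. Alternatives changed the scaling, filter, span, reads, cells, bins and libraries. Intervals and floors of 3 counts cover counting error only.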

Additional observations from a re-analysis of the deposited data

Results flagged for a closer look

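In 30 groups of 4 to 10 batches or libraries, 3 held a value set apart from the rest by a Dixon test, where chance would give about 1.5, or 1 in 20. Rian was highest in Exp264a, with 1366 CPM, and the next batch, Exp236, had 611. Without reads on small RNA genes Rian had 608 CPM in Exp264a and 397 in Exp236. Kcnq1ot1 was highest in Exp156, with 457 CPM against 256.1 in the next batch. In Exp156 the ES cell markers also had their highest sum, 1681 CPM against 691 in the next batch, and intergenic bins their lowest level, 0.0210 RPKM, and the part of these in the high value was not tested. Snrpn was highest in the inAGTuC library Exp261_c16, with 192 CPM against 24.1 in the next library. This library was also the highest of the 4 for Meg3, Rian, Mirg, Kcnq1ot1, Airn, Peg3 and Peg10. How many of all genes were highest there was not counted, so this is not read as particular to these genes. Antisense reads over all genes made up 19.2% of reads there, against 25.3% to 52.4% in the other inAGTuC libraries, and their part was not tested.

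Reads on Rian also appeared in a library outside the comparisons. Exp168_c13 had 1754 CPM on Rian (246 reads), where 3 counts allow 21.4, and 3 reads on Meg3. In this library 32.8% of deposited reads lay on small RNA genes, and without them Rian had 278 CPM (39 reads).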

How the results depend on the processing

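No gene among the 10 was called between scGRO–seq and inAGTuC under the alternatives, except Igf2r without Exp261_c16 (adjusted p = 0.00731), where 0.209% of all genes were called and the pile-up libraries Exp208_c12 and Exp208_c14 are 2 of the 3 inAGTuC libraries left, so that leaving out each library in turn gave 0 to 1 called. Between AGTuC and inAGTuC the same gave 2 to 5 called, with Meg3 and Mirg alone without Exp125c_c02, where calls over all genes fell from 7394 to 3279, and with Igf2r added without Exp234_c11 or without Exp261_c16. With median-of-ratios scaling Igf2r was called in place of Rian. Calls over all genes numbered 5429 with batch as a random block, where Airn was no longer called, 3281 with limma-trend, 4321 for gene bodies and 4355 without Exp125c_c01. Meg3 and Mirg were called in all 27 alternatives, Airn in 25 and Rian in 24. For cells with 2 or more reads no alternative could show stability, since a call needed 324 or more genes at the smallest p and at most 121 reached it.

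Log2 differences of scGRO–seq over inAGTuC turned for Meg3 (0.31) and Rian (0.46) without Exp156, Exp160 and library c16 of Exp260b, for Mirg with limma-trend (-0.041), and for Peg3 in gene bodies (-0.0052), with limma-trend (-0.31) and with 1000 UMIs as the only cell filter (-0.012). Leaving out each batch or library in turn gave -0.999 to 0.19 for Meg3, -0.41 to 0.93 for Mirg, -0.0244 to 0.25 for Airn and -0.37 to 0.68 for Peg3. Differences of AGTuC over inAGTuC turned for Igf2r without pile-ups (0.20), Peg10 in gene bodies (0.14), Grb10 with median-of-ratios scaling (-0.46) and quantile normalization (-0.47), and Snrpn with both (-0.64 and -0.68) with all deposited reads (-0.0898) and with batch as a random block (-0.27). Leaving out each in turn gave -0.39 to 0.45 for Kcnq1ot1, -0.89 to 0.62 for Peg10, -0.18 to 0.45 for Grb10 and -0.19 to 0.96 for Snrpn. None of these turned values passed the test, and the cause was not tested.

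The Kcnq1ot1 stretch in scGRO–seq was 70 kb at the 99th percentile, 88 kb in 2 kb bins and 90 kb without library c16 of Exp260b. In single inAGTuC libraries it fell to as little as 6 kb in 2 kb bins. That of Airn was 40 and 64 kb at the 99th percentile and in 2 kb bins in scGRO–seq, 40 and 16 kb in inAGTuC and 35 and 34 kb in AGTuC. With no low bin passed over it was 30 kb in inAGTuC and 35 kb in AGTuC, and with all deposited reads 95 kb in inAGTuC. The main limits are that AGTuC is a single batch, that 4 inAGTuC libraries differ widely, and that Airn, Mirg and Peg10 rest on few reads. No paired test was run, since the labels give no replicate numbers that the groups share, and the batch names were used. Of the batches that hold both scGRO–seq and inAGTuC, only Exp208 entered the fit with both. Among the batches of the fit Exp208 and Exp125c hold several units, and batch was taken as a random block (correlation 0.63), an alternative chosen after the data were seen, and Exp208 gave the within-batch values.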

Other observations

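Among 22 scGRO–seq libraries of batches outside the 10, with 7043 to 553390 reads each, Rian had more than 3 reads in 12, Kcnq1ot1 in 18 and Meg3 in 8. Over all barcodes, no library of Exp93b, Exp149, Exp153, Exp156 or Exp160 had more than 4 reads on Rian or Meg3. The scGRO–seq libraries of batches with higher numbers had more on Rian, but for Exp211_c08, Exp234_c09, Exp246_c04 and Exp246_c08. AGTuC batch Exp125c has a number between Exp93b and Exp149, and the labels do not say whether numbers follow time. All 3 libraries of Exp168 were high in Rian, at 991, 1661 and 1754 CPM, with 3, 1 and 3 reads on Meg3 and 110, 87.0 and 49.9 CPM on Kcnq1ot1. Small RNA genes held 22%, 33% and 32.8% of the deposited reads of these libraries, against 1.68% to 12.7% in the 35 libraries of the comparisons, and without them Rian had 294, 383 and 278 CPM. In the 10 batches, 18 more libraries gave no kept cells under the filters used and entered no comparison.

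Libraries of Exp246 differed among themselves in the stretch from Meg3 to Mirg. Library c03, the library of that batch whose cells were kept, had 475 sense reads there among 429631. Library c04 had 1 among 125898 and c08 had 2 among 176395, and other genes differed too. In c03, c04 and c08 Peg3 had 135.0, 15.9 and 0 CPM, Snrpn 128.0, 15.9 and 22.7 CPM, Airn 97.8, 23.8 and 28.3 CPM, and Kcnq1ot1 237, 262 and 56.7 CPM. In c08 the 0 of Peg3 allows up to 17 CPM. Antisense reads over all genes made up 30.5%, 30.7% and 44.1% of reads in these libraries, and the part of these shares in the low values was not tested.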
